A study of Mus musculus with 6 samples.

Results

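The genes described here encode ligands through which cells hold back or license T cells. They are the 2 ligands of the receptor PD-1 (Cd274, which encodes PD-L1, and Pdcd1lg2, which encodes PD-L2), 5 other members of the B7 family (Cd80, Cd86, Cd276, Vtcn1 and Icosl) and the pair Sectm1a and Sectm1b. They were chosen as every probe on the array whose RefSeq accession belongs to one of these 9 genes, which gave 11 of the array's 55681 probes. RNA came from sorted stem cells of the mouse hair follicle, together with the hair germ, and was measured on 1-colour Agilent microarrays, with 3 samples after DMBA and 3 after vehicle. Both groups were male mice that had been depilated. One received the polycyclic hydrocarbon DMBA, a skin carcinogen, topically and the other its solvent, acetone, and cells were taken 3 days later. In both groups the sorted epidermal cells were bright for EGFP under the keratin 15 promoter, bright for integrin alpha 6 and negative for Sca1 at the surface, so the population is defined by a reporter and 2 surface proteins. The series description says that the samples of a group came from different mice. Strain and age are not given in the sources used here.

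PD-L1 and PD-L2 bind PD-1 on activated T cells and restrain them. CD80 and CD86 are the classical costimulators of antigen-presenting cells and bind CD28, which activates T cells, and CTLA-4, which restrains them. ICOSL binds ICOS, while B7-H3 (Cd276) and B7-H4 (Vtcn1) have no single agreed receptor. Human SECTM1 is a ligand of CD7 on T and NK cells. PD-L1 is best known as a target of interferon gamma, acting through JAK1, JAK2 and IRF1, and the bulge of the hair follicle, where its stem cells sit, is known as a site of immune privilege.

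Values are log2 processed intensities relative to the 75th percentile of the same array, so a value of 0 lies at that percentile and 1 unit is a doubling. A probe counted as detected on an array when the scanner software marked it well above background. The share of all probes detected was 80.9%, 69.3% and 73.5% on DMBA 1 to 3 and 83.6%, 82.6% and 77.0% on vehicle 1 to 3. The lowest value on an array lay from -8.01 to -7.32 in DMBA and from -8.73 to -8.23 in vehicle, so a probe at the floor reads higher on the DMBA arrays. No gene passed the threshold among 17848 tested with limma (0%, smallest Benjamini-Hochberg adjusted p = 0.438), and 5.23% passed at an unadjusted p under 0.05. The members were picked with this comparison known, so their own differences are a description and carry no test. The sort marker Krt15 lay at 6.49, 5.74 and 5.79 in DMBA and at 5.70, 5.91 and 5.83 in vehicle, and Itga6 at 1.76, 2.80 and 2.42 in DMBA and at 2.46, 2.42 and 2.68 in vehicle, all detected.

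**Figure D1:**
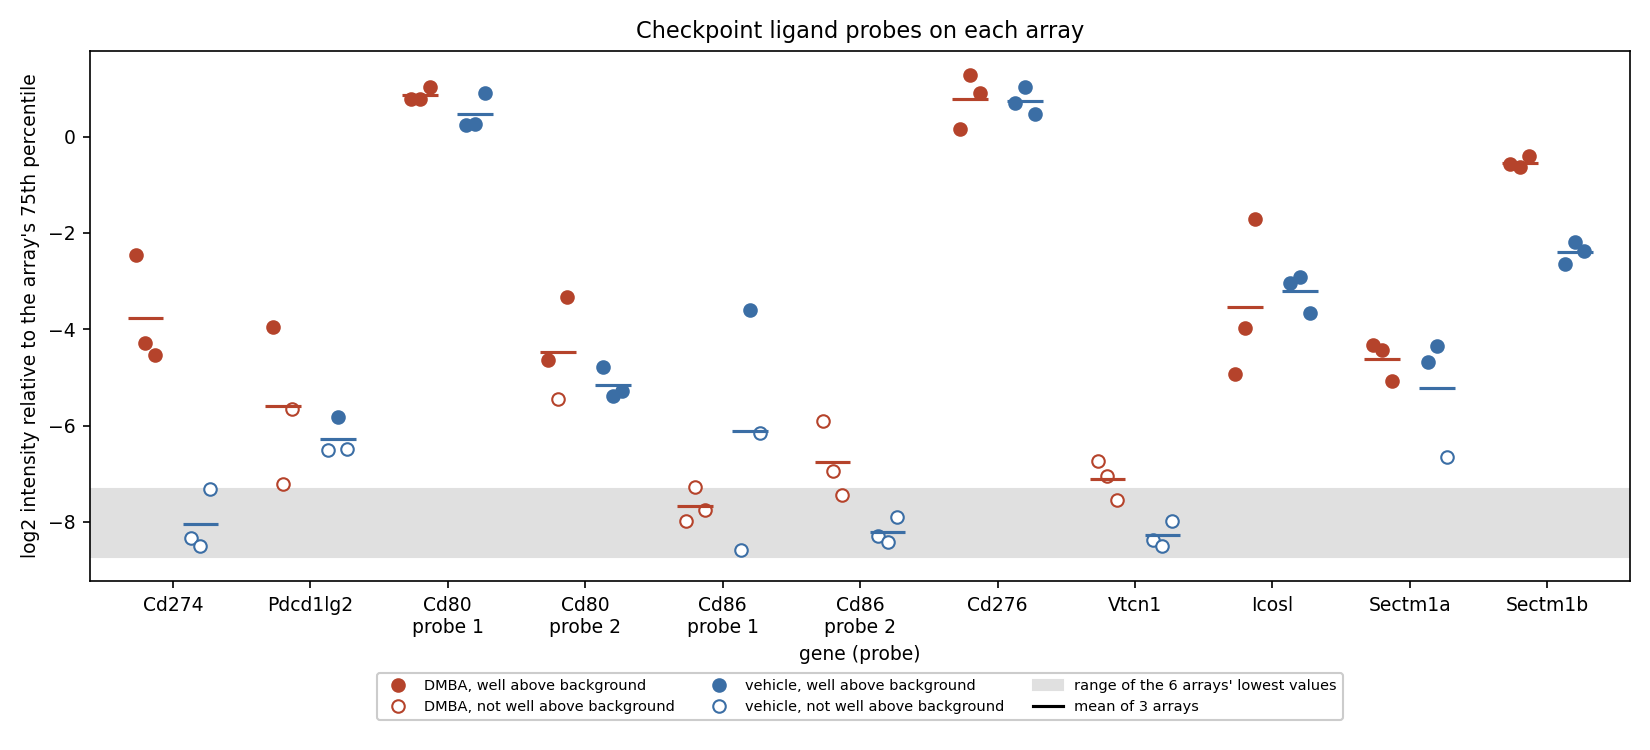
Level of each of the 11 probes on each array, as log2 intensity relative to the array's 75th percentile, with DMBA left of vehicle for every probe. Filled points were well above background, open points were not, bars are means of 3 arrays and the grey band spans the lowest values of the 6 arrays. Cd274 is open on all vehicle arrays and filled on all DMBA arrays, Sectm1b is filled throughout with separate groups, and Vtcn1 and one Cd86 probe are open throughout.

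Cd274 was detected on all 3 DMBA arrays and on none of the vehicle arrays. Its values were -2.46, -4.29 and -4.53 on DMBA 1 to 3, against -8.33, -8.51 and -7.32 on vehicle 1 to 3. As processed intensity before scaling, those were 247, 113 and 92.3 units in DMBA and 7.09, 5.87 and 11 units in vehicle. Every DMBA array thus lay far above every vehicle array, with DMBA 1 the highest and the vehicle arrays in or near the range of the array floors. The mean was -3.76 ± 1.13 in DMBA and -8.05 ± 0.64 in vehicle (SD, n = 3 each), a log2 difference of 4.29 (SE 0.63 from the limma fit). Since the probe was not detected in vehicle, no exact fold can be given. Against a floored vehicle mean, the signal in DMBA was 7.58-fold higher. That vehicle mean takes, per array, the probe's own signal or the lowest signal of any detected probe, whichever was higher. This floor is not a detection limit. On vehicle 3 it was -6.82, while the Icos probe read -5.73 there and was not detected. The 7.58-fold is thus no strict lower bound, and it leaves out the spread between arrays. Leaving out each array in turn gave differences from 3.64, without DMBA 1, to 4.68, without DMBA 3. With normexp background correction, which adds 50 intensity units to every spot, the difference was 1.57 (SE 0.44), and with all values raised to the lowest detected signal of their array it was 2.92 (SE 0.55).

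Detection on all 3 DMBA arrays and on no vehicle array occurred in 7 of 17848 genes, and the opposite, on all vehicle arrays and no DMBA array, in 77. Besides Cd274 the 7 were Aldh1a3, a retinaldehyde dehydrogenase, the cadherin-related Cdhr1, the IgM receptor Fcmr, the natriuretic peptide receptor Npr1, the acute phase gene Serpina3n and the zinc finger gene Zfp174, named after their values were seen. A gene tested with this pattern entered only through its DMBA arrays, since the filter asks for detection on at least 3 of 6 arrays, and so had to be higher there.

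Pdcd1lg2, the other PD-1 ligand gene, was detected on 2 arrays, DMBA 1 and vehicle 2, and missed the filter by 1 array. It lay at -3.96, -7.21 and -5.65 in DMBA and at -6.51, -5.83 and -6.48 in vehicle. DMBA 1 was the highest array and DMBA 2 the lowest, so the vehicle values lay inside the DMBA range and the means of -5.60 ± 1.63 and -6.27 ± 0.38 (SD, n = 3 each) do not separate the groups. DMBA 1 was the highest array for both PD-1 ligands.

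Sectm1b was detected on every array. It lay at -0.58, -0.64 and -0.41 on DMBA 1 to 3, against -2.65, -2.19 and -2.37 on vehicle 1 to 3. The 3 DMBA arrays lay close together and all above the 3 vehicle arrays. The mean was -0.54 ± 0.12 in DMBA and -2.40 ± 0.23 in vehicle (SD, n = 3 each), a log2 difference of 1.86 (SE 0.23), or 3.63-fold. Its difference ranged from 1.74, without vehicle 1, to 1.97, without vehicle 2, when each array was left out. The neighbouring Sectm1a lay at -4.32, -4.43 and -5.07 in DMBA and at -4.68, -4.35 and -6.66 in vehicle, and was not well above background on vehicle 3. Its groups overlapped, with means of -4.61 ± 0.40 and -5.23 ± 1.25 (SD, n = 3 each) and a log2 difference of 0.62 (SE 0.64). Without vehicle 3 that difference was -0.1. Whether either probe of this related pair also reads the other gene was not tested.

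Among the costimulators, Cd80 was detected on every array by its brighter probe, at 0.77, 0.78 and 1.02 in DMBA and at 0.24, 0.27 and 0.90 in vehicle. Only vehicle 3 reached into the DMBA range, and the log2 difference was 0.39 (SE 0.27). A second, dimmer Cd80 probe of the same transcript read -4.64, -5.46 and -3.33 in DMBA and -4.79, -5.39 and -5.28 in vehicle, a difference of 0.68 of the same sign with overlapping groups. It was not well above background on DMBA 2. Cd86 was detected on a single array by one of its probes, at -3.61 on vehicle 2, against -6.15 and -8.58 on the other vehicle arrays and from -7.98 to -7.28 in DMBA. Its other probe, designed to a noncoding transcript of the gene, was detected on no array. On that probe all 3 DMBA values, from -7.44 to -5.90, lay above all 3 vehicle values, from -8.42 to -7.90, at levels where neither group was detected, so no fold is given.

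Cd276, the gene of B7-H3, was detected on every array, at 0.15, 1.28 and 0.90 in DMBA and at 0.70, 1.02 and 0.47 in vehicle. The vehicle range lay inside the DMBA range, and the log2 difference was 0.05 (SE 0.35), from -0.32 to 0.36 over 17 alternatives. Vtcn1, the gene of B7-H4, was detected on no array. Its DMBA values from -7.54 to -6.74 and its vehicle values from -8.50 to -7.99 did not overlap, but both groups were at background and no fold is given. Icosl, detected on every array, was the most variable member in DMBA, at -4.93, -3.97 and -1.71, against -3.05, -2.92 and -3.67 in vehicle. Its log2 difference of -0.32 (SE 0.81) was -1.24 without DMBA 3 and 0.37 without DMBA 1.

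**Figure D2:**
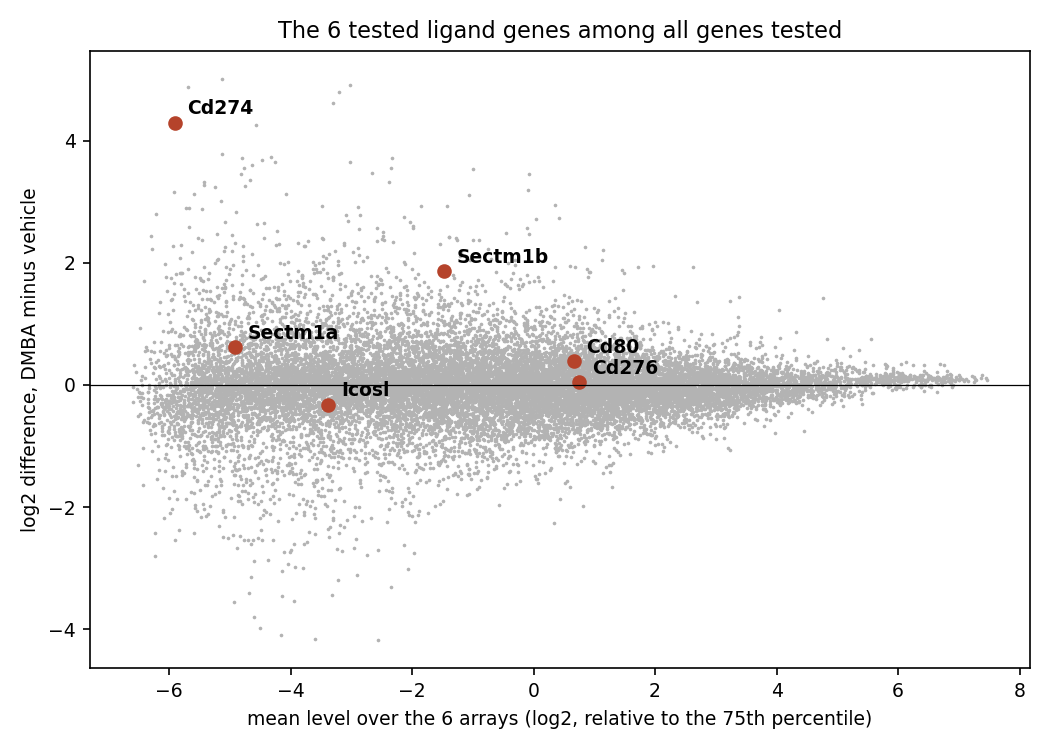
Log2 difference, DMBA minus vehicle, against the mean level over the 6 arrays for all genes tested (grey), with the 6 tested ligand genes in red. Cd274 lies at 4.29 at the dim end, Sectm1b at 1.86, and Sectm1a, Cd80, Cd276 and Icosl within the bulk of genes.

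Of the 9 genes, 6 had a probe that passed the detection filter. Their median log2 difference was 0.50, beside -0.01 over all genes tested. At an unadjusted p under 0.05, Cd274 and Sectm1b, 2 of the 6, were higher and 0 were lower. Over all genes tested, 2.73% were higher and 2.49% lower by that measure. The groups did not overlap in the same 2 genes, both higher after DMBA. Over all genes, the groups did not overlap in 10.0%, with 4.87% higher and 5.17% lower. Because the members were picked with Cd274 and Sectm1b known, these counts are read no further. The other 4 tested members had differences from -0.32 to 0.62 with overlapping groups. The values of Cd274 and Sectm1b over the 6 arrays had a Pearson's r of 0.925, which mainly restates that both separate the groups, and 79 genes tested had a higher r with Cd274.

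The promoters of both genes are shown because both separate the treatment groups. Promoter windows of 7 of the 9 members, from 250 bases before to 50 bases after the start of transcription, were read from a RefSeq table in GRCm38.p6, a different build from the mm9 annotation of the array. Capitals mark matches, on either strand, to the core GCGTG of the xenobiotic response element bound by the aryl hydrocarbon receptor, and, in Sectm1b, to an NF-kB motif.
Cd274 (chr19:29367188-29367487, plus strand): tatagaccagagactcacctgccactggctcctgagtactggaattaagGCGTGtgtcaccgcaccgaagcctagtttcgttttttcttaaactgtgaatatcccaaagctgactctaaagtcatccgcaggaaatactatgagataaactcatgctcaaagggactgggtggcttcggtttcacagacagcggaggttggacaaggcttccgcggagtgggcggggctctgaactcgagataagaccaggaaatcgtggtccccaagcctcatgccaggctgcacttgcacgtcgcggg
Sectm1b (chr11:121063520-121063819, minus strand): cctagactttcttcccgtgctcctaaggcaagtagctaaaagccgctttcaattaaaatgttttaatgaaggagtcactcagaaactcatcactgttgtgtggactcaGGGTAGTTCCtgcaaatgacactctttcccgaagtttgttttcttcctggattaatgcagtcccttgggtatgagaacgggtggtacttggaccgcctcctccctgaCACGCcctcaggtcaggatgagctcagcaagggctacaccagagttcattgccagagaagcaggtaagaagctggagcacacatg

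The GCGTG core lay 201 to 197 bases before the start in Cd274 and, on the opposite strand, 35 to 31 bases before it in Sectm1b. The core is short, and 32.4% of all 32851 promoter windows of this length held it. The NF-kB motif of Sectm1b lay 142 to 133 bases before the start, and 5.56% of windows held one. Neither window matched the interferon-stimulated response element (3.44% of windows), the AP-1 motif TGANTCA (7.81%) or a single decamer of the p53 response element (8.36%). Among the other members, Cd276 held 2 GCGTG cores, Cd80 and Vtcn1 1 AP-1 motif each, and Pdcd1lg2 and Icosl none of the motifs named here. These are matches of letters within 300 bases and say nothing of binding.

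Cd274 and Pdcd1lg2 lie side by side on chromosome 19, and the 6 protein-coding genes on either side of the pair were read for comparison. Rln1, which encodes the hormone relaxin and is separated from Cd274 by Plgrkt alone, lay at -0.24, -0.23 and -2.54 in DMBA, against -5.35, -5.39 and -6.11 in vehicle. Its groups lay far apart, and it was detected on 3 DMBA and 2 vehicle arrays. The log2 difference of Rln1 was 4.61 (SE 0.67), and 3.20 (SE 0.54) with normexp background correction. DMBA 3 was the lowest DMBA array in both Cd274 and Rln1, while DMBA 1 stood above the other DMBA arrays in Cd274 and level with DMBA 2 in Rln1.

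The other neighbours of Cd274, Mlana aside, had differences from -1.03 to 0.93. Plgrkt, a plasminogen receptor gene between Rln1 and Cd274, lay at 1.82, 1.52 and 1.35 in DMBA and at 1.92, 1.74 and 2.07 in vehicle, a log2 difference of -0.34 (SE 0.24). Jak2, the kinase of the interferon gamma receptor and also a neighbour, had a difference of -0.60 (SE 0.57), and Insl6, a relative of relaxin, 0.93 (SE 0.84), both with overlapping groups. On the far side, Ric1 had 0.50 (SE 0.44) and Ermp1 0.12 (SE 0.43). Mlana, a melanocyte gene, lay at 0.78, 2.05 and 1.37 in DMBA and at -2.62, 0.87 and -2.22 in vehicle. Vehicle 2 alone reached the DMBA range, and the difference was 2.72 (SE 0.95). Il33, the gene of an epithelial alarmin at the end of the window, had -1.03 (SE 0.98).

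**Figure D3:**
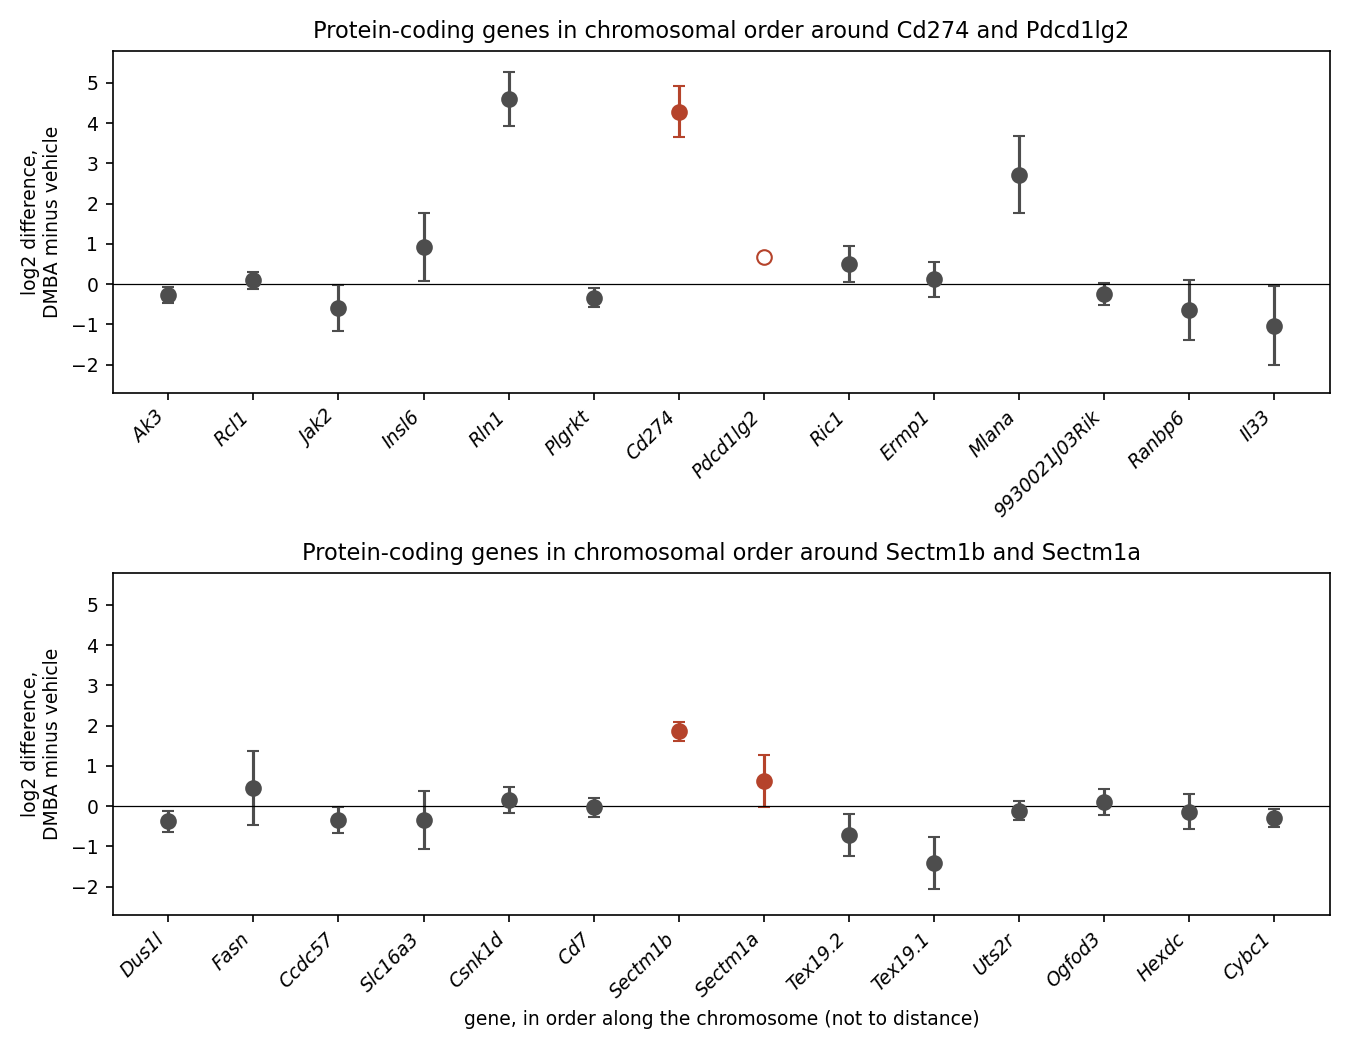
Log2 difference, DMBA minus vehicle, with its SE from the limma fit, for protein-coding genes in their order along the chromosome around Cd274 and Pdcd1lg2 (top) and around Sectm1b and Sectm1a (bottom). Red marks the ligand genes and an open point a gene that missed the detection filter. Rln1 at 4.61 and Cd274 at 4.29 flank Plgrkt at -0.34, and the neighbours of Sectm1b other than its pair lie from -1.42 to 0.45 against its 1.86.

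Sectm1b and Sectm1a lie on chromosome 11 beside Cd7, whose human counterpart is the receptor of SECTM1. Cd7 was detected on every array, at -2.11, -2.57 and -2.42 in DMBA and at -2.38, -2.45 and -2.17 in vehicle. The groups lay on top of each other, with a log2 difference of -0.03 (SE 0.23). The other 11 neighbours had differences from -1.42, for Tex19.1 (SE 0.65), to 0.45, for Fasn (SE 0.91), the fatty acid synthase, and all of them overlapped between the groups.

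The genes most like Cd274 over the 6 arrays, by Pearson's r on the log2 values, were the taste receptor gene Tas2r109 (r = 0.994), Tspan17, a tetraspanin (0.989), Ei24, a p53-induced gene (0.989), Jdp2, an AP-1 repressor (0.987), and Vmac (0.982). Their log2 differences were 0.72, 2.23, 0.96, 0.74 and 0.90, all smaller than that of Cd274. After scaling, DMBA 1 was the highest array on each of them. The 75th percentile used for scaling was 1355 units on DMBA 1, against 2222 on DMBA 2 and 2128 on DMBA 3. Before scaling, DMBA 1 was the highest DMBA array in Tspan17 and the lowest in Tas2r109, Ei24, Jdp2 and Vmac. Those most like Sectm1b were Ccnd2, a cyclin of G1 (r = 0.997), Axin2, a Wnt feedback inhibitor (0.996), Pmm1, a phosphomannomutase (0.986), the adaptor gene Sh2d2a (0.984) and Abhd11 (0.984). Their log2 differences were 0.87, 2.37, 1.01, 0.86 and 0.84. Another kept probe gave 1.16 for Tspan17, 0.39 for Axin2, 1.87 for Pmm1, 0.33 for Sh2d2a and 0.86 for Abhd11. These likenesses rest on 6 arrays in 2 groups, with no p given. They were the highest among the 17848 genes once members and genes whose names are only identifiers were left out.

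The signals that drive Cd274 transcription were read as a list of 20 genes, all tested. None passed over all genes, 1 was higher and 0 lower at an unadjusted p under 0.05, and the median log2 difference was 0.01. Over all genes tested, 2.73% were higher and 2.49% lower at that unadjusted p. The 1 higher gene was Irf9, a subunit of the type I interferon complex ISGF3, at 0.97, 0.97 and 1.46 in DMBA and at 0.07, -0.27 and 0.09 in vehicle (difference 1.17, SE 0.25). The interferon gamma receptor gene Ifngr1 had all DMBA arrays below all vehicle arrays, as in 5.17% of all genes (difference -0.73, SE 0.31). Irf1, the factor that acts on the Cd274 promoter, had -0.67 (SE 0.47) with overlapping groups (-0.06 on another probe). Ifng itself was detected on 1 DMBA and 2 vehicle arrays (difference 0.38, SE 0.59). Tyk2, the kinase of the type I interferon receptor, had 0.99 (SE 0.49) and Ifnar2, a subunit of that receptor, -0.50 (SE 0.26).

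Of 15 tested genes for the stability and traffic of PD-L1 protein, 0 passed at an unadjusted p under 0.05 in either direction, and the median was 0.04. The smallest p was that of Hip1r, whose product sends PD-L1 to lysosomes, at -3.25, -2.76 and -1.55 in DMBA and at -3.31, -3.33 and -3.31 in vehicle. Each DMBA array lay above the vehicle arrays, DMBA 1 by little, as in 4.87% of all genes. The log2 difference of Hip1r was 0.80 (SE 0.45). The kinase gene Cdk5 had 0.68 (SE 0.55), the deubiquitinase Usp22 -0.17 (SE 0.22) and the glycosyltransferase B3gnt3 -0.50 (SE 0.67), all with overlapping groups. Cmtm6, which keeps PD-L1 at the cell surface, had -0.20 (SE 0.28).

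The receptors of these ligands belong mostly to T cells. All 6 were tested, 0 passed at an unadjusted p under 0.05 and the median was -0.23. Pdcd1, the gene of PD-1, was detected on 1 DMBA and 2 vehicle arrays, with a log2 difference of -0.53 (SE 0.45). Cd28 had -0.60 (SE 0.59), Ctla4 0.11 (SE 0.24) and Icos 0.91 (SE 0.56; 0.25 on another probe). Rgmb, which binds PD-L2, lay at -3.57, -3.81 and -3.81 in DMBA and at -3.27, -3.27 and -3.36 in vehicle (-0.43, SE 0.21). Every DMBA array lay below every vehicle array in Rgmb, as in 5.17% of all genes.

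Among 14 tested genes of other checkpoint and costimulatory ligands, 0 passed at an unadjusted p under 0.05 and the median was -0.10. Lgals9, the gene of the TIM-3 ligand galectin 9, had the smallest p of them, at 1.88, 2.38 and 2.50 in DMBA and at 0.53, 1.27 and 2.15 in vehicle. Vehicle 3 lay inside the DMBA range, and the log2 difference was 0.93 (SE 0.45). Cd48, a ligand of CD244, had 0.38 (SE 0.24; 0 on another probe). Nectin2, a ligand of TIGIT, had -0.66 (SE 0.59; -0.31 on another probe) and Nectin3 1.06 (SE 1.05), both with overlapping groups.

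Butyrophilins and Skint genes are relatives of the B7 family, and Skint1 is known for selecting the T cells of mouse epidermis. Of 17 tested, 0 were higher and 2 lower at an unadjusted p under 0.05, and the median was 0.09. Over all genes tested, 2.73% were higher and 2.49% lower by that measure. Skint3 lay at -2.28, -1.15 and -1.64 in DMBA and at -0.76, -0.20 and -0.77 in vehicle (difference -1.11, SE 0.36, and -0.49 on another probe). Every DMBA array lay below every vehicle array in Skint3, as in 5.17% of all genes. Skint4 lay at -2.24, -0.92 and -0.13 in DMBA and at 1.09, -0.20 and 0.69 in vehicle, with a small overlap (difference -1.62, SE 0.61; -0.53 on another probe). Btnl4 had 1.06 (SE 0.61), Skint11 -0.81 (SE 0.59) and Skint1 0.11 (SE 0.51), and Btnl9 was detected on no array. Of the ligands of NKG2D, stress signals to NK and gamma delta T cells, 3 of 9 listed genes could be tested, and 0 passed at an unadjusted p under 0.05. H60c, the skin form, had -0.84 (SE 0.47), Ulbp1 0.90 (SE 0.91) and Raet1e 0.00 (SE 0.64).

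**Figure D4:**
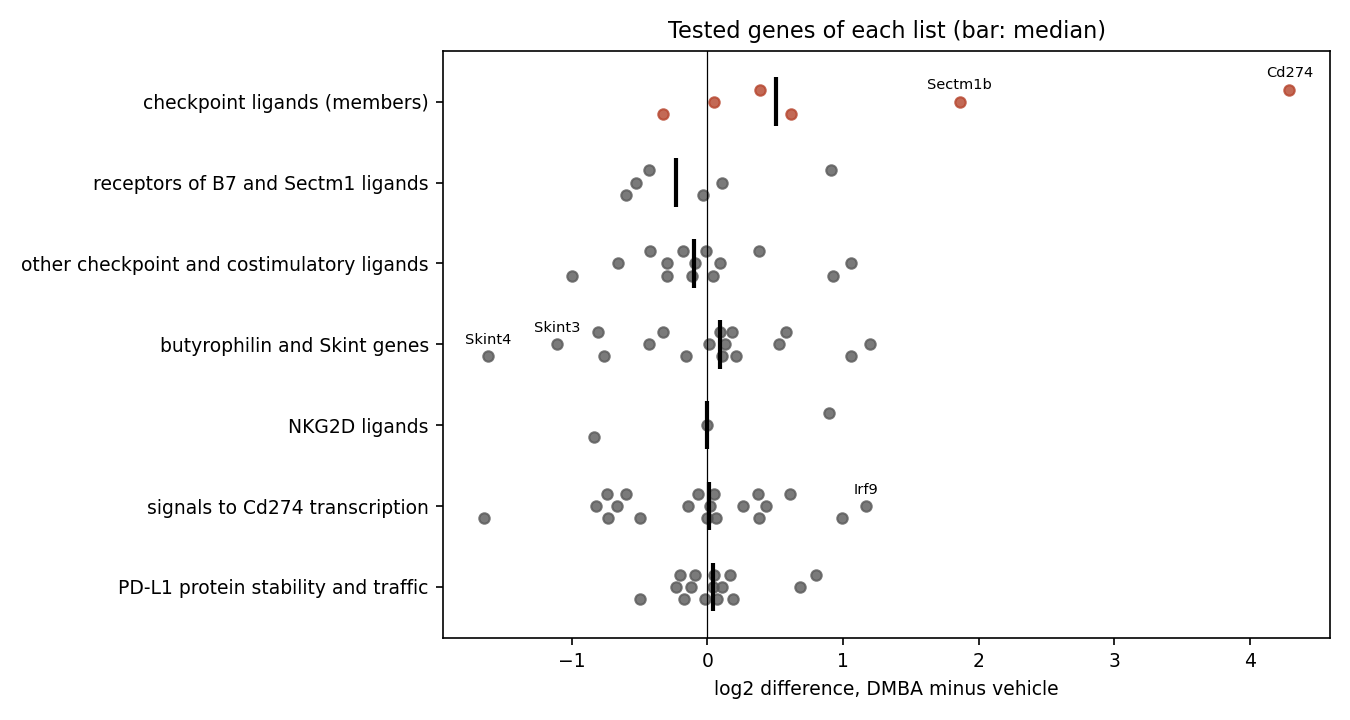
Log2 differences, DMBA minus vehicle, of every tested gene in the ligand family and in 6 related lists, 1 point a gene, with the median as a black bar. Cd274 and Sectm1b stand apart from the other ligands, and the 6 related lists have medians from -0.23 to 0.09.

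Several of these ligands are textbook genes of leukocytes, so the markers of other cells were read beside them. Of 7 tested markers of antigen-presenting and Langerhans cells, 1 was higher and 0 lower at an unadjusted p under 0.05. Over all genes tested, 2.73% were higher and 2.49% lower by that measure. The 1 higher marker was the MHC class II gene H2-Eb1, at -0.26, -1.18 and 0.25 in DMBA and at -2.14, -3.11 and -2.84 in vehicle (difference 2.30, SE 0.45). Cd207, the gene of langerin, was level at -2.56, -3.17 and -3.15 in DMBA and -2.98, -2.99 and -3.38 in vehicle (0.16, SE 0.27), and H2-Aa had -0.49 (SE 0.23). The summed linear signal of that list, in units of the 75th percentile, ranged from 6.41 to 7.48 in DMBA and from 6.49 to 10.3 in vehicle. For 9 T cell markers it ranged from 6.09 to 9.77 in DMBA and from 6.50 to 9.75 in vehicle, and for 8 macrophage markers from 89.1 to 143 in DMBA and from 93.9 to 112 in vehicle, with 0 genes of either list past an unadjusted p under 0.05. Ptprc, the gene of the leukocyte antigen CD45, had a difference of -0.09 (SE 0.24). The macrophage sum is nearly all 1 probe, that of Itgam, and without it the other 7 genes summed to 4.32 to 5.12 in DMBA and 4.82 to 5.39 in vehicle. The sums of these 3 lists overlapped between the groups.

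Of 9 melanocyte markers 3 were higher and 0 lower at an unadjusted p under 0.05, against 2.73% and 2.49% of all genes, and the list's median was -0.05. The 3 were Mlana, Tyrp1 (3.35, SE 1.32) and Ednrb (0.75, SE 0.30, and -0.27 on another probe). Tyrp1 was detected on all DMBA arrays but, in vehicle, on vehicle 2 alone. Vehicle 2, at -3.62, lay above DMBA 3, at -4.72, so the groups overlapped. Vehicle 1 and 3, not detected, read -8.22 and -7.19. With normexp background correction the Tyrp1 difference was 1.56 (SE 0.62). Kit, the receptor of stem cell factor, had -1.24 (SE 0.73), and the other 5 markers had differences from -0.47 to 0.10, all with overlapping groups. The list's summed signal was 4.20 to 6.86 in DMBA and 2.99 to 4.51 in vehicle, and without Mlana, its brightest gene, 1.62 to 4.27 in DMBA and 2.67 to 3.54 in vehicle. Of 5 tested fibroblast markers 1 was higher and 0 lower at an unadjusted p under 0.05, the proteoglycan gene Dcn (1.51, SE 0.25). By sign alone 4 were higher and 1 lower, and the list's median was 0.51, beside -0.01 over all genes. The groups did not overlap in 3 of them, Dcn, Col1a1 and Fbln1, all higher after DMBA, as in 4.87% of all genes. Col1a1 had 1.29 (SE 0.57), Col3a1 -0.52 (SE 0.34) and Fbln1 0.24 (SE 0.22). The sums of the fibroblast list were 19.0 to 20.5 in DMBA and 14.8 to 17.2 in vehicle, mostly from Fbln1, and without it they overlapped, at 2.58 to 3.18 in DMBA and 1.02 to 3.13 in vehicle. Pdgfra, a defining gene of that lineage, was detected on no array. Ly6a, the Sca1 gene, had 1.45 (SE 0.45) among 7 markers of interfollicular epidermis and sebaceous gland, whose sums of 64.3 to 100 in DMBA and 45.7 to 103 in vehicle overlapped. Among 8 genes induced by tissue handling, 6 were higher and 2 lower by sign, with a median of 0.50, beside -0.01 over all genes. At an unadjusted p under 0.05, 1 was higher, Ier2 (1.23, SE 0.42), and 0 were lower. Ier2 and Fosb (0.63, SE 0.29) had no overlap between the groups, both higher after DMBA, as in 4.87% of all genes. The handling sums of 24.7 to 27.3 in DMBA and 23.1 to 27.7 in vehicle overlapped. Without the brightest gene they were 10.5 to 13 in DMBA and 7.31 to 11.3 in vehicle, with a smaller overlap. Of 14 tested stem cell and hair germ markers, 6 were higher and 8 lower by sign, with a median of -0.04. At an unadjusted p under 0.05, 0 were higher and 1 was lower, Lgr5. All DMBA arrays lay below all vehicle arrays in 2, Lgr5 (-0.64, SE 0.22) and Sox9 (-0.50, SE 0.24), as in 5.17% of all genes. The list's sums were 381 to 548 in DMBA and 367 to 427 in vehicle. Without its brightest gene they were 238 to 317 in DMBA and 220 to 263 in vehicle. For 4 tested endothelial markers 0 passed at an unadjusted p under 0.05. The part of handling, melanocytes, fibroblasts and Sca1-positive keratinocytes in the values of Cd274 and Sectm1b was not tested. In bulk RNA a larger number of cells of a type and more RNA per cell cannot be told apart.

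**Figure D5:**
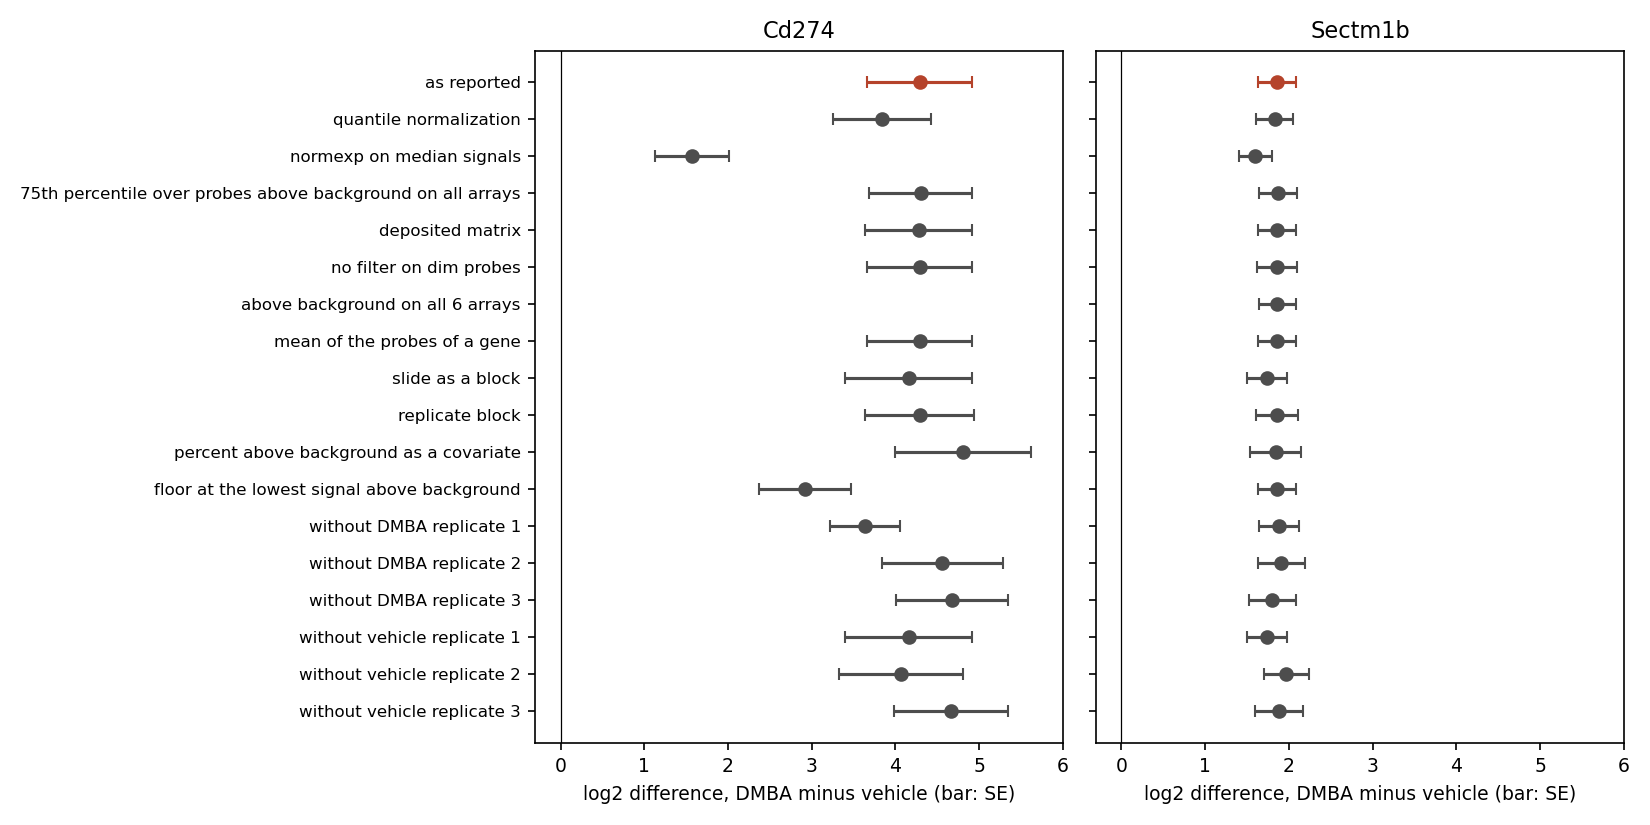
Log2 difference, DMBA minus vehicle, with its SE, of Cd274 (left) and Sectm1b (right) as reported and under each alternative processing, including the fits without 1 array. Sectm1b stays between 1.60 and 1.97 and Cd274 between 1.57 and 4.81. Cd274 has no point for detection on all 6 arrays, a filter it does not pass.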

How the data were processed

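RNA of sorted hair follicle cells was measured on 1-colour arrays, 3 after DMBA and 3 after vehicle, grouped by the sample titles. Per the file headers, the authors' scanner files hold spot intensity after background subtraction by Agilent Feature Extraction 10.7.1.1, with probe annotation in mm9. The deposited matrix of the series, intensity divided by about the 75th percentile of each array, served as an alternative. It is on a linear scale and uncentred by gene, with array medians of 0.154 to 0.172. After taking log2 it followed the log2 scanner values at r of 0.99992 to 0.99997.

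Values are log2 processed intensity minus the log2 75th percentile of the array over its spots other than the 3671 controls. Spots marked as outliers were left out (45 probe values missing, none in a member) and spots of a probe averaged. Probes well above background on at least 3 of 6 arrays were kept (44955 of 55681). RefSeq accessions, without version, named 28331 probes through the GRCm38.p6 gene table, and the kept probe with the highest mean stood for a gene. DMBA was compared with vehicle in limma 3.58.1 (R 4.3.3; lmFit, eBayes, two-sided, Benjamini-Hochberg, threshold 0.05), tested on simulated data first. Every value depends on 3 arrays a group, which limits its precision. Vehicle 1 was on a slide and in a scan of its own. Normexp on mean spot signals was planned and not run. Normexp on median spot signals took its place, a choice made after seeing the data, as were the floor on dim values and the list sums without the brightest gene.

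Members, lists and tests were chosen with earlier results of these data known. Named genes were, by rule, the members, the 5 genes most like Cd274 and the 5 most like Sectm1b, the 6 protein-coding neighbours on either side of each pair, up to 4 genes of each list by smallest p, and list genes detected on no array. Members and genes whose names are only identifiers were left out of the genes most like Cd274 and Sectm1b. Krt15, Itga6, Irf1, Ifng, Cmtm6, Ctla4, Skint1, Ptprc and Itgam fall outside the naming rule and were chosen after their values were seen. Some results on list genes are not reported here.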

Additional observations from a re-analysis of the deposited data

How the results depend on the processing

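Over 16 alternatives for Cd274 and 17 for Sectm1b both stayed higher after DMBA. Normexp on median signals gave 1.57 for Cd274 and 1.60 for Sectm1b, and a floor at the lowest detected signal gave 2.92 for Cd274 (both chosen after seeing the data). The cause was not tested, but normexp adds 50 units to intensities that were at most 11 for Cd274 in vehicle. Leaving out each array gave 3.64 to 4.68 for Cd274 and 1.74 to 1.97 for Sectm1b. With the slide as a term the differences were 4.16 and 1.74, those without vehicle 1, the lone array of its slide. Signs turned for Sectm1a in 1 alternative, for Icosl in 2 and for Cd276 in 4, none of them a call. Of the members, 1 was past an unadjusted p of 0.05, and 1 had groups that did not overlap, among genes detected on all 6 arrays, a filter that removes Cd274. Without each array in turn both counts were 2 to 3. The number of genes called in all was 0 to 1 without each array (1, Apln, without vehicle 2) and 0 in the other alternatives. Over all genes, 488 were higher and 445 lower at an unadjusted p under 0.05, against 1258 and 455 of 21368 with no filter, 757 and 560 with the detected share as a covariate, and 500 and 727 without DMBA 1. Genes of the 6 related lists past an unadjusted p of 0.05 numbered 3 as reported, 1 with the mean of a gene's probes, 12 with each array's detected share as a covariate, 5 with the floor, and 3 to 10 without each array (10 without DMBA 1, 5 without vehicle 3). The replicate block gave 7 such list genes, and 4.29 for Cd274 and 1.86 for Sectm1b with no gene called. Same-numbered arrays did not deviate together (r = 0.0183, -0.0197 and 0.0585). These values cannot show whether the samples were collected or processed in pairs. Of 1554 values for 92 other named genes 28 moved by more than the residual SD of the gene and 74 turned sign, none of them a call. Signal over background limits Cd274 in vehicle, Pdcd1lg2, Cd86 and Vtcn1.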
